A study of Mus musculus with 16 samples.

Results

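The 9 genes described here encode enzymes of the mitochondrial tricarboxylic acid (TCA) cycle: Cs, Idh3a, Idh3b, Idh3g, Ogdh, Dlst, Suclg1, Fh1 and Mdh2. They were taken by gene symbol, 9 of the 55450 genes of the count table, and their transcript levels were compared among CD4+ and CD8+ tumor-infiltrating T lymphocytes (TILs) of WT and Sirt2-/- mice. TILs came from subcutaneous tumors of B16F10, a mouse melanoma line. There were 4 libraries in each of the 4 groups, 16 in all, made by strand-specific, ribosomal RNA-depleted sequencing of total RNA from low input. WT mice were C57BL/6J and Sirt2-/- mice were B6.129-Sirt2tm1.1Fwa/J, young adults of both sexes matched for age and sex. The knockout is germline, so Sirt2, which encodes a NAD-dependent deacetylase, was lost from every cell of the host and not from T cells alone, whereas the inoculated tumor cells were the same line in both genotypes. TILs were enriched from digested tumor with CD3ε microbeads. The question was whether loss of Sirt2, or the T cell lineage, went with a different level of the transcripts of this cycle.

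The TCA cycle oxidizes the acetyl group of acetyl-CoA to carbon dioxide and passes the electrons to the respiratory chain as NADH and FADH2. It also supplies citrate for lipid and acetyl-CoA synthesis, and oxaloacetate and 2-oxoglutarate for amino acids. Proliferating T cells draw on the cycle for both, and effector T cells in tumors work where glucose and oxygen can be scarce. Flux through the cycle is set largely by substrate supply and by allosteric control of its dehydrogenases, so that transcript levels are not a measure of flux.

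The libraries held 28000949 to 62407851 counts on genes. The targeted gene followed the labels. Sirt2 had 0 to 553 counts in Sirt2-/- CD4+ libraries against 1681 to 2272 in WT CD4+ libraries, and 322 to 448 in Sirt2-/- CD8+ against 1196 to 1703 in WT CD8+ libraries. Its log2 fold change was -2.22 (SE 0.21) in CD8+ TILs, with an adjusted p of 0.00663 by edgeR's quasi-likelihood test. In CD4+ TILs it was -2.60 (SE 1.26, unadjusted p 0.0654, edgeR) with all libraries and -1.95 (SE 0.18, adjusted p 0.00163, edgeR) without the library with no count for it and WT replicate 1, which stand apart as described next. The lineage labels matched their markers as well: Cd4 lay at 384 to 620.2 CPM (counts scaled to library size with TMM factors) in CD4+ libraries and at no more than 4.93 in CD8+ libraries, while Cd8a lay at 1004 to 1261 CPM in CD8+ libraries and at no more than 33.4 in CD4+ libraries. A group of 3 libraries stood apart because few genes had at least 1 count: 8169 genes in Sirt2-/- CD4+ replicate 4, 12587 in replicate 1 of WT CD4+ TILs and 14411 in replicate 1 of WT CD8+ TILs, with 17730 to 22138 elsewhere. The first has no count at all for Idh3g, Fh1 and Sirt2, although it has the largest total. Tests of the members are given with all libraries of the comparison and without those 3 (those with under 15000 genes detected), and levels were ranked without them. Libraries of bulk RNA cannot tell fewer expressing cells from less RNA per cell. The labels give 4 mice per group but do not say which libraries share a mouse, so p-values measure the spread between libraries.

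The DNA just upstream of the transcription start is shown for members with 1 start in the RefSeq promoter table (GRCm38) and no exon annotated in GENCODE in the 120 bases before it. These are Cs and Fh1, which were higher in CD8+ TILs without the 3 libraries, and Idh3g, which was not called in any comparison and is shown beside them. Idh3a has no entry in the table. Capitals mark 2 letter patterns searched on both strands, the CCAAT box (CCAAT, or ATTGG on the other strand) and the GC box (GGGCGG, or CCGCCC on the other strand), and the matches do not overlap one another. Sequences run 5′ to 3′ along the strand of the gene.
Cs, chr10:128337607-128337726, plus strand: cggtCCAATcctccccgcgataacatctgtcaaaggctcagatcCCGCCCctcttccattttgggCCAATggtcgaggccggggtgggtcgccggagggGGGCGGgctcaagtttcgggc
Fh1, chr1:175625636-175625755, minus strand: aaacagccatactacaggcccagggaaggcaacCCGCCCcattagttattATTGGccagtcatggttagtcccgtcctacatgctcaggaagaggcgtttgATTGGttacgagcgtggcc
Idh3g, chrX:73786898-73787017, minus strand: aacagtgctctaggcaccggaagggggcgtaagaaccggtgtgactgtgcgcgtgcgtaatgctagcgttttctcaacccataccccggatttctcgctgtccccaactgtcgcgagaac
In Cs the CCAAT box began 116 and 55 bases before the start and the GC box 76 and 21 bases before it. In Fh1 the CCAAT box began 70 and 19 bases before the start and the GC box 87 bases before it. Neither pattern is in the window of Idh3g. Over the 32851 promoters of the table, 21.3% hold a CCAAT box and 26.5% a GC box in the same 120 bases, so both are common. A match is a description of the letters and not a bound site.

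Levels of the members were ranked by CPM per kilobase of exon, in the 13 libraries that did not stand apart. The order was much the same in the 4 groups. Mdh2, which encodes the mitochondrial malate dehydrogenase that returns malate to oxaloacetate, was first, with a mean of 51.0 ± 6.88 CPM per kb in WT CD8+ TILs (SD, n = 3) and 34.6 ± 3.22 in Sirt2-/- CD4+ TILs (SD, n = 3). Ogdh, the first subunit of the 2-oxoglutarate dehydrogenase complex, was second, with means of 32.4 to 39.8 CPM per kb. The ranges of Mdh2 and Ogdh overlapped in CD4+ TILs of both genotypes and were apart in CD8+ TILs of both genotypes. Idh3b followed with means of 22.1 to 29.1 CPM per kb, and Cs with 16.9 to 26.6; these neighbours overlapped in all groups but Sirt2-/- CD4+ TILs. Fh1, which encodes fumarase, was last in every group, with means of 6.21 to 10.9 CPM per kb.

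Idh3a changed rank. It encodes the catalytic alpha subunit of NAD-dependent isocitrate dehydrogenase (IDH3), the step that oxidizes isocitrate to 2-oxoglutarate. In CD4+ TILs it was the seventh of the 9 members, with 9.93 ± 1.69 CPM per kb in Sirt2-/- (SD, n = 3) and 11.7 ± 1.57 in WT libraries (SD, n = 3). Its CD4+ range overlapped that of its neighbour Dlst in both genotypes. In CD8+ TILs it was the fifth, with 20.8 ± 2.05 CPM per kb in Sirt2-/- (SD, n = 4) and 21.7 ± 2.11 in WT libraries (SD, n = 3). Its CD8+ range lay above every value of Idh3g in both genotypes and overlapped that of Cs, in WT TILs only at the edge.

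CD8+ TILs were compared with CD4+ TILs within each genotype. With all libraries, Idh3a was the member called higher in CD8+ TILs, in both genotypes. That is 1 of 9 members in WT TILs, where 4.89% of the genes tested were called higher, and 1 of 9 in Sirt2-/- TILs, where 0.918% were. No member was called lower. Without the 3 libraries, Cs, Idh3a, Suclg1 and Fh1 were called higher in WT TILs (4 of 9 members, against 14.9% of the genes tested) and the same genes together with Mdh2 in Sirt2-/- TILs (5 of 9, against 13.8%). Idh3b, Idh3g, Ogdh and Dlst passed the threshold in neither genotype, with or without the 3 libraries.

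**Figure D1:**
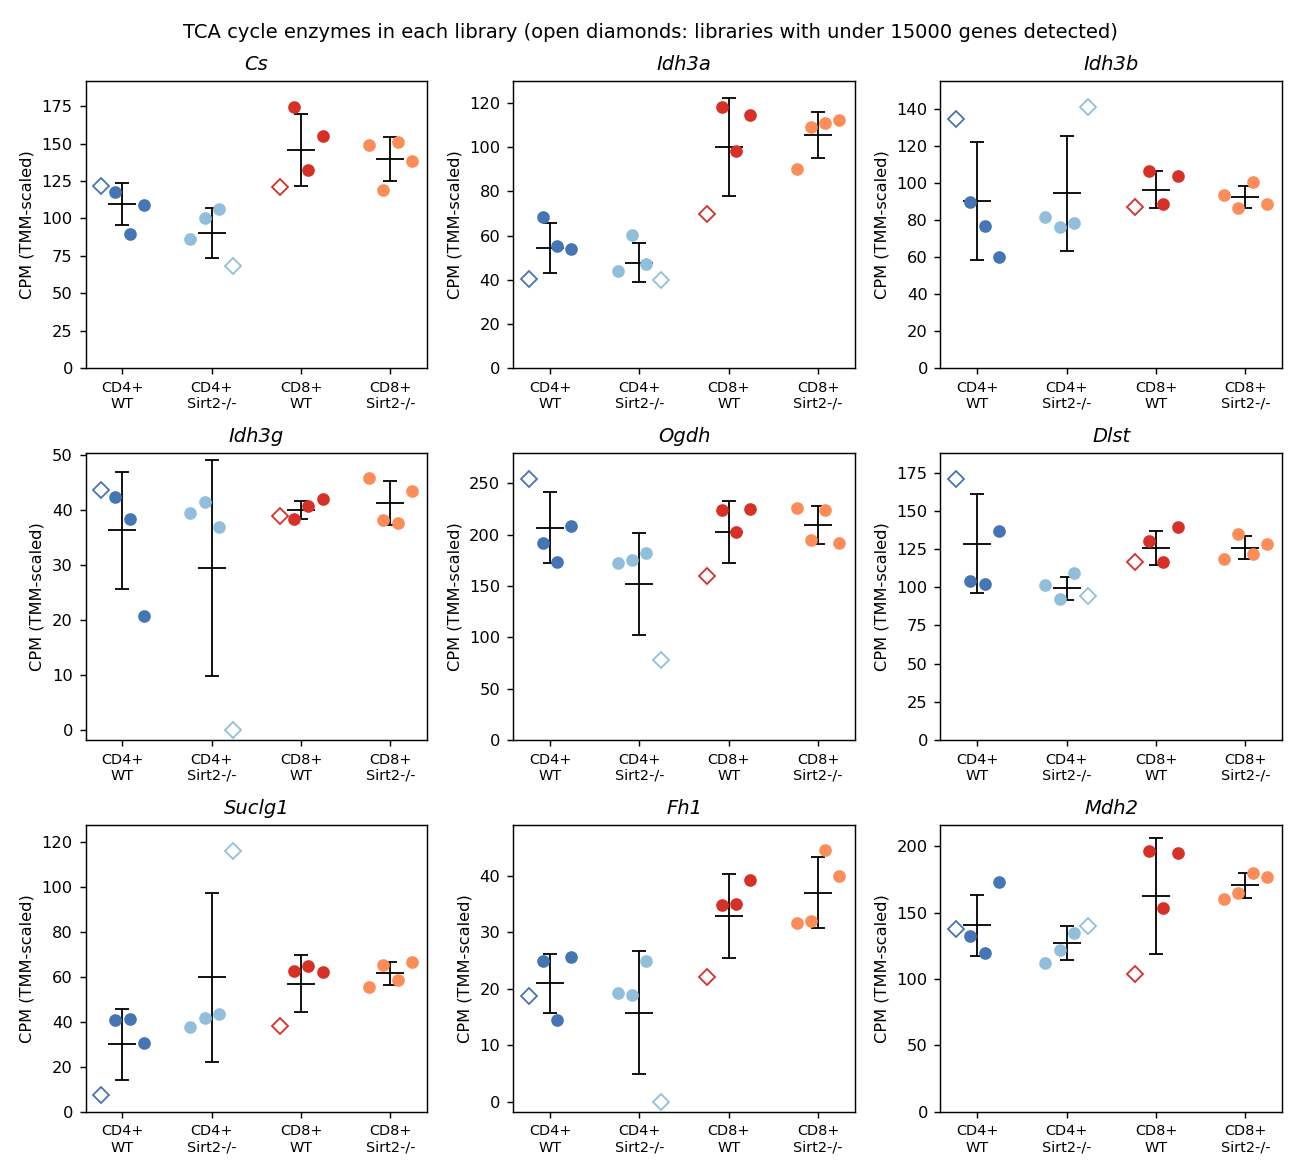
TMM-scaled CPM (vertical axis) of each of the 9 enzymes in every library of the 4 groups (horizontal axis). Each point is a library, the bar is the mean with its SD over the 4 libraries, and open diamonds are the 3 libraries with under 15000 genes detected; for Idh3a every CD8+ point lies above every CD4+ point.

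Idh3a (GRCm38 chr9:54586334-54604661, plus strand) showed the clearest separation. In WT CD4+ TILs it measured 40.5, 68.3, 55.2 and 53.9 CPM in replicates 1 to 4, and in Sirt2-/- CD4+ TILs 43.9, 60.1, 47.1 and 39.8 CPM. In WT CD8+ TILs it measured 69.6, 118, 98.0 and 115 CPM, and in Sirt2-/- CD8+ TILs 90.0, 109, 111 and 112 CPM. Every CD8+ library lay above every CD4+ library of its genotype, although the lowest CD8+ library (69.6) and the highest CD4+ library (68.3) were close, the former being one of the 3 with few genes. The log2 fold change was 0.80 (SE 0.21, adjusted p 0.0307) in WT and 1.13 (SE 0.18, adjusted p 0.0171) in Sirt2-/- TILs by edgeR, that is 1.74-fold and 2.19-fold. It was, without the 3 libraries, 0.89 (SE 0.13, adjusted p 0.000631) in WT and 1.03 (SE 0.13, adjusted p 0.000341) in Sirt2-/- TILs. With all libraries the call was lost in WT TILs on leaving out WT CD4+ replicate 3 or 4 or WT CD8+ replicate 2, 3 or 4, with adjusted p from 0.0511 to 0.103. In Sirt2-/- TILs it was lost on leaving out CD4+ replicate 1 or 3 or CD8+ replicate 2, 3 or 4, with adjusted p from 0.0530 to 0.0826, and without the filter on low counts, with an adjusted p of 0.0557 (edgeR).

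Idh3b and Idh3g encode the other two subunits of the IDH3 enzyme, which together with the alpha subunit make up its heteromer. Idh3b (chr2:130279309-130284547, minus strand) ranged from 60.2 to 134 CPM in WT CD4+ and from 86.8 to 106 CPM in WT CD8+ TILs. It ranged from 76.1 to 141 CPM in Sirt2-/- CD4+ and from 86.6 to 100.3 CPM in Sirt2-/- CD8+ TILs. The highest value in each CD4+ group belongs to the library with few genes. The log2 fold change between lineages was 0.03 (95% CI -0.43 to 0.49) in WT and -0.04 (95% CI -0.52 to 0.44) in Sirt2-/- TILs. These became 0.39 (95% CI 0.06 to 0.72, adjusted p 0.0795, edgeR) and 0.19 (95% CI -0.01 to 0.40, adjusted p 0.158, edgeR) without the 3 libraries. Idh3g (chrX:73778963-73786897, minus strand) ranged from 20.8 to 43.6 CPM in WT CD4+ and from 38.4 to 41.9 CPM in WT CD8+ TILs, and in Sirt2-/- TILs from 36.8 to 41.5 CPM in the 3 CD4+ libraries with a count and from 37.6 to 45.8 CPM in CD8+ libraries. Its log2 fold change without the 3 libraries was 0.25 (95% CI -0.26 to 0.75) in WT and 0.04 (95% CI -0.22 to 0.29) in Sirt2-/- TILs.

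The ratio of the subunits within a library does not depend on how libraries are scaled, and was examined after the values had been seen. The ratio of Idh3a to Idh3b per kilobase was 0.204, 0.514, 0.486 and 0.604 in WT CD4+ replicates 1 to 4 and 0.541, 0.750, 0.747 and 0.745 in WT CD8+ replicates. It was 0.362, 0.533, 0.404 and 0.191 in Sirt2-/- CD4+ replicates and 0.649, 0.849, 0.745 and 0.852 in Sirt2-/- CD8+ replicates. The groups did not overlap in Sirt2-/- TILs, and in WT TILs they overlapped through CD8+ replicate 1 alone, which has few genes. The mean log2 ratio was higher in CD8+ TILs by 0.72 in WT (exact permutation test, two-sided, p = 0.0571, adjusted p = 0.0762) and by 1.14 in Sirt2-/- TILs (p = 0.0286 by the same exact test, the smallest that 4 libraries against 4 allow, adjusted p = 0.0762). For Idh3a over Idh3g the difference was 0.67 in WT (exact permutation p = 0.0857, adjusted p = 0.0857). It was 1.01 in Sirt2-/- TILs, where CD4+ replicate 4 with no count for Idh3g could not enter (exact permutation p = 0.0571, adjusted p = 0.0762). The p-values were adjusted over these 4 tests, and none passed 0.05. On leaving out the 3 libraries, an alternative chosen after seeing the data, the difference for Idh3a over Idh3b was 0.49 in WT (exact permutation p = 0.1, the smallest that 3 libraries against 3 allow) and 0.85 in Sirt2-/- TILs (exact permutation p = 0.0571, the smallest that 4 against 3 allow), and the groups were separate in both genotypes. For Idh3a over Idh3g it was then 0.58 in WT, where the groups still overlapped (exact permutation p = 0.2), and again 1.01 in Sirt2-/- TILs.

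**Figure D2:**
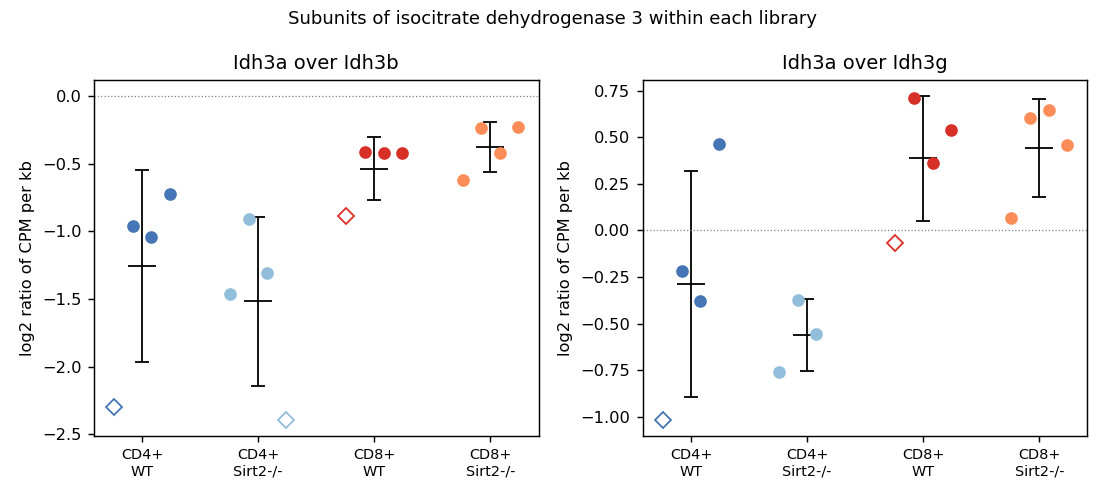
Log2 ratio of CPM per kb (vertical axis) of Idh3a to Idh3b (left) and of Idh3a to Idh3g (right) in each library of the 4 groups. Points are libraries, bars are the mean with its SD, and open diamonds are libraries with under 15000 genes detected; ratios in Sirt2-/- CD8+ libraries all lie above those in Sirt2-/- CD4+ libraries, while WT groups overlap, for Idh3a over Idh3b through 1 open diamond alone.

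Cs (chr10:128337734-128362479, plus strand) encodes citrate synthase, which joins acetyl-CoA to oxaloacetate at the entry of the cycle. It measured 122, 117, 89.8 and 109 CPM in WT CD4+ replicates and 121, 174, 133 and 155 CPM in WT CD8+ replicates. Its Sirt2-/- values were 86.5, 100.0, 106 and 68.3 CPM in CD4+ replicates and 149, 119, 151 and 139 CPM in CD8+ replicates. The groups overlapped in WT TILs, where the lowest CD8+ library was the one with few genes, and were separate in Sirt2-/- TILs. The log2 fold change was 0.34 (SE 0.15, adjusted p 0.179, edgeR) in WT and 0.61 (SE 0.18, adjusted p 0.141, edgeR) in Sirt2-/- TILs. On leaving out the 3 libraries it was 0.54 (SE 0.14, adjusted p 0.0136, edgeR) and 0.48 (SE 0.11, adjusted p 0.0102, edgeR).

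Suclg1 (chr6:73248382-73276911, plus strand) encodes the alpha subunit of succinyl-CoA synthetase, the step that forms a nucleoside triphosphate directly. It measured 7.42, 41.0, 41.1 and 30.6 CPM in WT CD4+ replicates and 38.2, 62.9, 64.8 and 62.1 CPM in WT CD8+ replicates. Its Sirt2-/- values were 37.9, 41.7, 43.7 and 116 CPM in CD4+ replicates and 55.7, 65.5, 58.7 and 66.6 CPM in CD8+ replicates. The 3 libraries with few genes hold the lowest WT CD4+, the lowest WT CD8+ and the highest Sirt2-/- CD4+ value, and among the other 13 every CD8+ value lay above every CD4+ value. The log2 fold change was 0.84 (SE 0.43, adjusted p 0.272, edgeR) in WT and 0.04 (SE 0.36, adjusted p 0.998, edgeR) in Sirt2-/- TILs. In the other libraries it was 0.74 (SE 0.14, adjusted p 0.00316, edgeR) and 0.55 (SE 0.11, adjusted p 0.00392, edgeR).

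Fh1 (chr1:175600374-175625635, minus strand) encodes fumarase, which hydrates fumarate to malate. It measured 18.7, 25.0, 14.6 and 25.6 CPM in WT CD4+ replicates and 22.1, 34.9, 35.1 and 39.4 CPM in WT CD8+ replicates. The Sirt2-/- values were 19.4, 18.9 and 25.0 CPM in CD4+ replicates 1 to 3, with no count in replicate 4, and 31.7, 32.0, 44.7 and 40.0 CPM in CD8+ replicates. Among the 13 libraries the CD8+ values were all higher than the CD4+ values. The log2 fold change without the 3 libraries was 0.74 (SE 0.21, adjusted p 0.0231, edgeR) in WT and 0.78 (SE 0.16, adjusted p 0.00547, edgeR) in Sirt2-/- TILs. With all libraries it was 0.58 (SE 0.26, adjusted p 0.199, edgeR) in WT, and in Sirt2-/- TILs the interval ran from -1.83 to 4.25.

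Mdh2 (chr5:135778480-135790398, plus strand) measured 137, 132, 119.6 and 173 CPM in WT CD4+ replicates and 104, 197, 153 and 195 CPM in WT CD8+ replicates. The Sirt2-/- values were 112, 122, 135 and 139.7 CPM in CD4+ replicates and 160.0, 165, 180.1 and 177 CPM in CD8+ replicates. WT groups overlapped with or without the 3 libraries, and Sirt2-/- groups did not. The log2 fold change was 0.13 (SE 0.20, adjusted p 0.759, edgeR) in WT and 0.41 (SE 0.12, adjusted p 0.141, edgeR) in Sirt2-/- TILs, and without the 3 libraries 0.35 (SE 0.15, adjusted p 0.117, edgeR) and 0.44 (SE 0.10, adjusted p 0.00736, edgeR).

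Ogdh (chr11:6291633-6356642, plus strand) and Dlst (chr12:85110833-85134845, plus strand) encode the decarboxylating and the succinyl-transferring subunits of the 2-oxoglutarate dehydrogenase complex. Ogdh ranged from 174 to 254 CPM in WT CD4+ and from 159.9 to 225 CPM in WT CD8+ TILs, and from 78.1 to 183 CPM in Sirt2-/- CD4+ and from 192 to 226 CPM in Sirt2-/- CD8+ TILs. Dlst ranged from 102 to 171 CPM in WT CD4+ and from 117 to 139.7 CPM in WT CD8+ TILs, and from 92.4 to 109 CPM in Sirt2-/- CD4+ and from 118 to 135 CPM in Sirt2-/- CD8+ TILs. For both genes the WT groups overlapped and the Sirt2-/- groups did not. In WT TILs their log2 fold changes were both -0.10 with all libraries and 0.18 and 0.16 without the 3 libraries, so the sign changed on leaving them out. In Sirt2-/- TILs without the 3 libraries they were 0.21 (95% CI -0.00258 to 0.42, adjusted p 0.145, edgeR) and 0.29 (95% CI 0.07 to 0.50, adjusted p 0.0512, edgeR).

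Counted over the members, with all libraries 1 of 9 had every WT CD8+ library above every WT CD4+ library, against 12.6% of the genes tested, and 6 of 9 had this in Sirt2-/- TILs, against 16% of the genes tested. With the 3 libraries left out the counts were 4 of 9 (24.2% of the genes tested) and 8 of 9 (21.1%), Idh3g being the exception in Sirt2-/- TILs. The median log2 fold change of the members was 0.13 in WT against -0.02 over all genes tested, and 0.44 in Sirt2-/- TILs against 0.16 over all genes tested. Without the 3 libraries it was 0.39 against 0.01 in WT and 0.44 against -0.00416 in Sirt2-/- TILs, and all 9 members had a fold change above 0 in both genotypes.

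**Figure D3:**
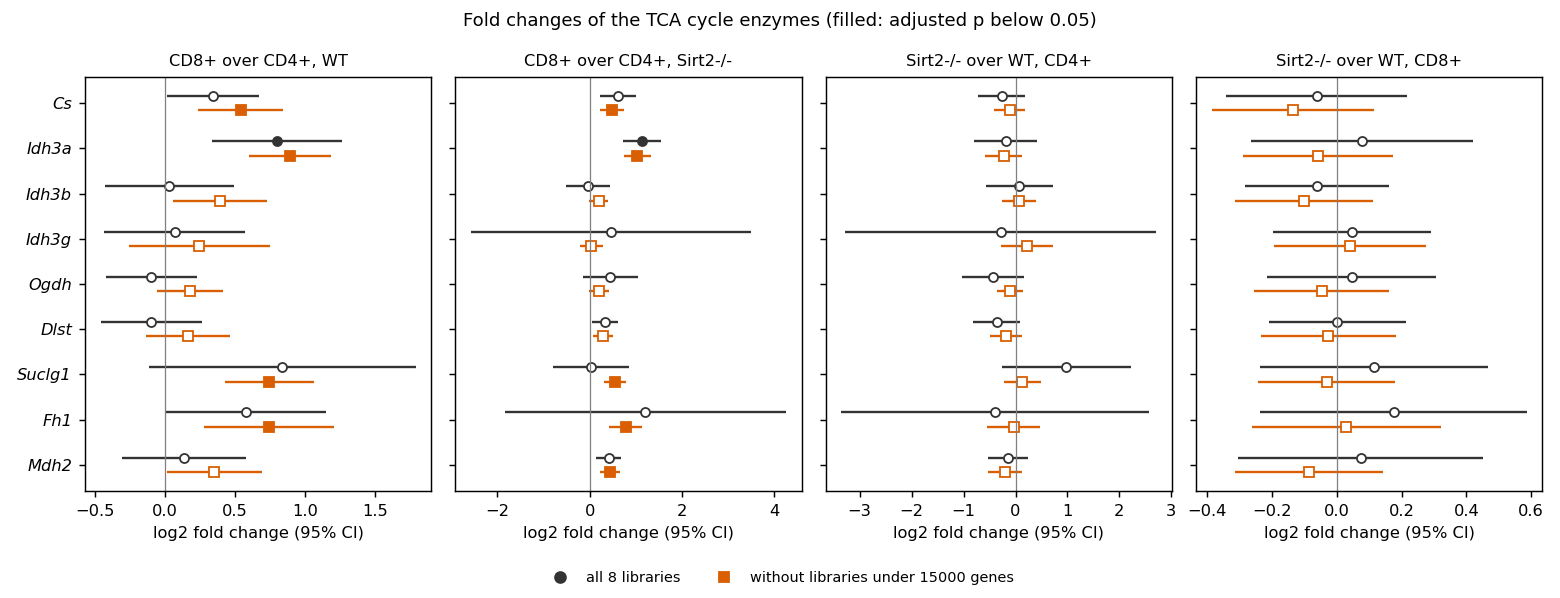
Log2 fold change with its 95% CI (horizontal axis, whose range differs between panels) of each enzyme in 4 comparisons. Circles are fits with all 8 libraries, squares are fits without those under 15000 genes detected, and filled symbols passed an adjusted p of 0.05; filled symbols are found in the comparisons of CD8+ with CD4+ TILs and in neither comparison of genotypes.

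A list of 10 proliferation genes moved in the same comparisons. Its summed level ranged from 641 to 1087 CPM in WT CD4+ and from 1078 to 1984 CPM in WT CD8+ TILs, and from 412 to 919 CPM in Sirt2-/- CD4+ and from 979.7 to 1745 CPM in Sirt2-/- CD8+ TILs. All 10 had a fold change above 0 in CD8+ TILs of both genotypes. With all libraries 4 were called higher in WT (Mcm2, Rrm2, Top2a and Pcna, against 4.89% of the genes tested) and 1 in Sirt2-/- TILs (Pcna, against 0.918%), and without the 3 libraries 9 in WT (against 14.9%) and 7 in Sirt2-/- TILs (against 13.8%). Melanocyte genes, which mark the tumor line, summed to 81.5 CPM in Sirt2-/- CD4+ replicate 4 and to 103 CPM in WT CD4+ replicate 1. Both are among the libraries with few genes, and the sum was no more than 16.1 CPM in the other 14. In Sirt2-/- CD4+ replicate 4 the sum came from Mitf (54.0 CPM) and Dct (27.5 CPM) alone, and the other 6 genes of the list had no count. Every gene of the list had counts in WT CD4+ replicate 1. In the stromal list Pecam1 is an adhesion molecule of endothelium and of some leukocytes. It made up a median of 91.2% of the sum (at least 68.6%) in CD4+ and 96.4% (at least 48.5%) in CD8+ libraries. Its level was 56.4 to 163 CPM in CD4+ and 36.2 to 78.4 CPM in CD8+ libraries. The other 4 stromal genes, 3 collagen chains and Dcn, summed to a median of 7.41 CPM (at most 56.7) in CD4+ and 1.60 CPM (at most 53.1) in CD8+ libraries, and myeloid genes to no more than 41.4 CPM in CD4+ and 58.1 CPM in CD8+ libraries. B cell genes summed to no more than 12.5 CPM and erythroid genes to no more than 9.31 CPM in any library. The part of these lists in the differences of the members was not tested.

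Sirt2-/- TILs were then compared with WT TILs within each lineage. No member was called in CD4+ TILs, where edgeR called 0% of the genes tested (190 of 15070 had an unadjusted p under 0.05, and DESeq2 called 6), and none in CD8+ TILs, where it called 0.00654%, a single gene, Sirt2. Without the 3 libraries no member was called either, against 0.0374% of the genes tested in CD4+ and 0.0439% in CD8+ TILs. No member had an unadjusted p under 0.05 in either lineage, with or without the 3 libraries, and DESeq2 called 0 of 9. The libraries of the 2 genotypes overlapped for all 9 members in both lineages, whereas 3.13% of the genes tested in CD4+ and 2.95% in CD8+ TILs had groups that did not overlap (10.8% and 5.08% without the 3 libraries).

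In CD8+ TILs the genotype difference of the members was bounded closely. Log2 fold changes with all libraries ran from -0.06 for Cs to 0.17 for Fh1, and the widest upper bound was 0.59, for Fh1. Idh3a had 0.08 (95% CI -0.27 to 0.42). Without WT CD8+ replicate 1 they ran from -0.14 for Cs to 0.04 for Idh3g, and no interval reached beyond -0.39 or 0.32, so a change of 2-fold lay outside all 9 intervals. The 5 members Idh3a, Ogdh, Dlst, Suclg1 and Mdh2 changed sign without that library, to values between -0.09 and -0.03. The median over the members was 0.05 against 0.01 over all genes tested, and -0.05 against 0.01 without that library.

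In CD4+ TILs the intervals were wider, and widest for the genes without a count in Sirt2-/- replicate 4. With all libraries the log2 fold change of Idh3g was -0.28 (95% CI -3.28 to 2.71) and that of Fh1 was -0.39 (95% CI -3.35 to 2.57), while Suclg1 had 0.98 (95% CI -0.26 to 2.22). Without the libraries with few genes these were 0.22 (95% CI -0.28 to 0.72), -0.04 (95% CI -0.55 to 0.48) and 0.13 (95% CI -0.23 to 0.49). The other members then lay between -0.23 for Idh3a and 0.06 for Idh3b, with intervals from -0.58 to 0.40. The median over the members was -0.27 against -0.11 over all genes tested with all libraries, and -0.11 against -0.00156 without the libraries with few genes.

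Whether the genotype difference itself differed between CD8+ and CD4+ TILs was tested over all 16 libraries. No member was called, and edgeR called 0% of the genes tested (342 of 17270 had an unadjusted p under 0.05, none of them a member, and DESeq2 called 5 genes and no member). The estimate for Idh3a was 0.27 (95% CI -0.34 to 0.87) on the log2 scale, and 0.17 (95% CI -0.23 to 0.57) without the 3 libraries. The intervals of the 9 members without the 3 libraries ran from -0.72 to 0.64.

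The members do not cover the whole cycle, and 3 further lists were examined. A list of 8 further genes of the cycle holds Idh2, Suclg2, Sucla2, Dld and the 4 subunits of succinate dehydrogenase, Sdha to Sdhd. With all libraries 0 of these 8 genes were called between lineages by edgeR in either genotype (11.9% of the genes tested were called in WT and 2.24% in Sirt2-/- TILs, in either direction), with an unadjusted p under 0.05 for 3 in WT and 1 in Sirt2-/- TILs. The smallest p in WT TILs belonged to Sdhd, with a log2 fold change of 0.47 (SE 0.18), and Suclg2, with 1.04 (SE 0.42). The third of these genes in WT TILs, Idh2, went the other way, with -0.76 (SE 0.33). In Sirt2-/- TILs it belonged to Sdhc, with 0.76 (SE 0.27), and Dld, with 0.21 (SE 0.17). Without the 3 libraries 28% and 25.4% of the genes tested were called in either direction, and 14.9% and 13.8% were called higher. Of the 8 genes 0 were then called lower and 3 were called higher in CD8+ TILs in each genotype. These were Sdhd (0.70), Dld (0.45) and Suclg2 (0.55) in WT, and Sdhb (0.66), Sdhc (0.68) and Suclg2 (0.79) in Sirt2-/- TILs. Sdhb, Sdhc and Sdhd are parts of succinate dehydrogenase, which is also complex II of the respiratory chain, and Suclg2 encodes the GTP-specific partner of Suclg1. The median of these 8 genes was then 0.38 in WT and 0.33 in Sirt2-/- TILs.

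Pyruvate enters the cycle through a mitochondrial carrier and the pyruvate dehydrogenase complex, which kinases of the Pdk family switch off. Of these 13 genes 12 were tested, Pdk4 having too few counts. With all libraries Pdk1 fell in WT CD8+ relative to CD4+ TILs, with a log2 fold change of -0.52 (SE 0.15, adjusted p 0.0434, edgeR), and none was called in Sirt2-/- TILs, where the smallest p belonged to Pdhx, with -1.26 (SE 0.84), and Pdk3, with 0.35 (SE 0.24). Pdhx lay at 95.6 CPM in Sirt2-/- CD4+ replicate 4, which has few genes, and at 7.95 to 11.39 CPM in the other libraries of that group. Sirt2-/- CD8+ libraries had 11.35 to 14.68 CPM. Without the 3 libraries Pdhb, which encodes a subunit of the E1 enzyme of the complex, rose in WT TILs (0.52) and Pdk1 fell (-0.46). The kinase gene Pdk3 (0.44) and the phosphatase gene Pdp2 (0.42) then rose in Sirt2-/- TILs. With all libraries 1 of 12 was thus called in WT TILs, where 11.9% of the genes tested were called in either direction. Without the 3 libraries 1 of 12 was called higher and 1 lower in WT, and 2 higher in Sirt2-/- TILs. The shares of the genes tested in either direction were then 28% and 25.4%.

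The third list holds 16 genes of the cytosolic counterparts, the metabolite shuttles and glutamine entry, of which 15 were tested, Me3 having too few counts. It held the largest falls. Got1, the cytosolic aspartate aminotransferase of the malate-aspartate shuttle, fell in CD8+ TILs of both genotypes, with log2 fold changes of -1.35 (SE 0.18, adjusted p 0.000646, edgeR) in WT and -1.78 (SE 0.31, adjusted p 0.0249, edgeR) in Sirt2-/- TILs. Idh1, the cytosolic NADP-dependent isocitrate dehydrogenase, fell in WT CD8+ TILs, with -1.45 (SE 0.40, adjusted p 0.0392, edgeR). Me2, a mitochondrial malic enzyme that turns malate into pyruvate, rose in WT CD8+ TILs, with 0.87 (SE 0.13, adjusted p 0.00138, edgeR). These 3 kept their calls in WT TILs without the 3 libraries, as did Got1 in Sirt2-/- TILs. Mdh1, the cytosolic malate dehydrogenase, then rose in both genotypes (0.36 and 0.39), and Got2, the mitochondrial aspartate aminotransferase, rose in Sirt2-/- TILs (0.43). With all libraries 1 of 15 was called higher and 2 lower in WT, and 1 lower in Sirt2-/- TILs. The shares of the genes tested in either direction were 11.9% and 2.24%. Without the 3 libraries 2 of 15 were called higher and 2 lower in WT, and 2 higher and 1 lower in Sirt2-/- TILs, against 28% and 25.4%.

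**Figure D4:**
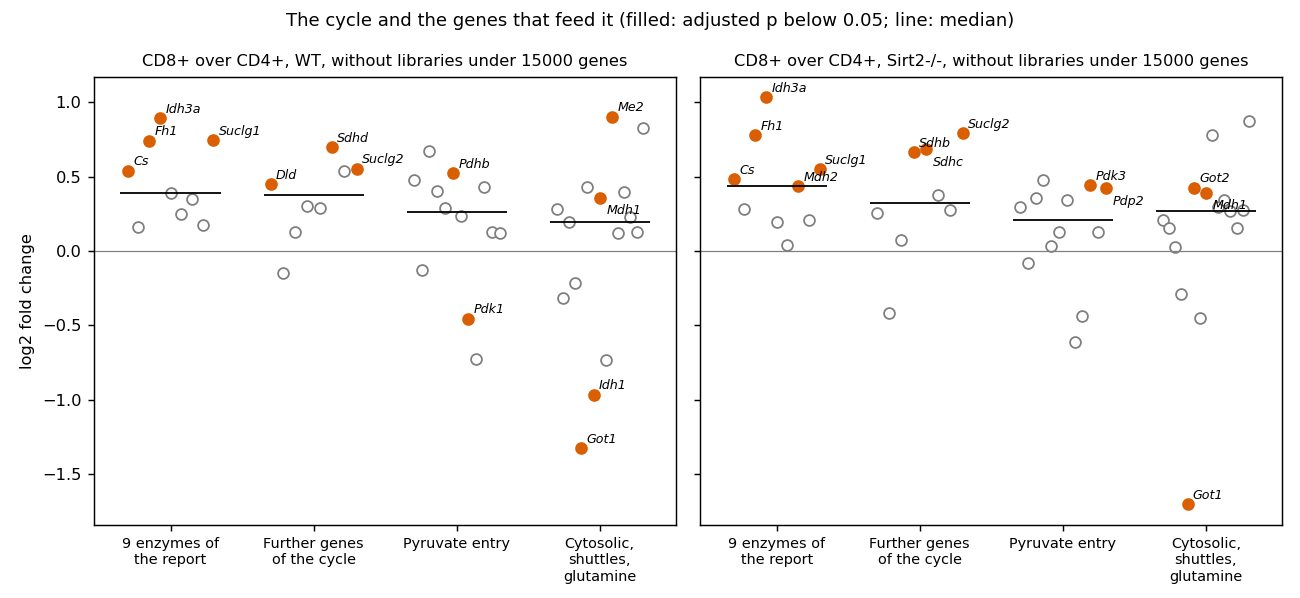
Log2 fold change of CD8+ over CD4+ TILs (vertical axis) in WT (left) and Sirt2-/- TILs (right), without libraries under 15000 genes detected, for the 9 enzymes and the 3 further lists (horizontal axis). Each point is a gene, filled points passed an adjusted p of 0.05 and carry their symbol, and lines are list medians; Got1 lies lowest in both panels.

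None of the 3 lists had a gene called between genotypes in either lineage by edgeR, with all libraries or without the 3. The smallest p belonged to Me2 in CD8+ TILs, where Sirt2-/- libraries had a log2 fold change of -0.45 (SE 0.09, unadjusted p 0.000356, adjusted p 0.647, edgeR), the only gene of the lists with an unadjusted p under 0.05 between genotypes with all libraries. In the same comparison Slc25a10 had -0.66 (SE 0.38), Suclg2 -0.35 (SE 0.20), Sdhb 0.15 (SE 0.10), Pdhb -0.17 (SE 0.13) and Mpc1 0.17 (SE 0.19). In CD4+ TILs the smallest p of each list belonged to Got1, with 0.53 (SE 0.30), and Got2, with -0.33 (SE 0.27), to Sdhd, with 0.41 (SE 0.38), and Sucla2, with 0.37 (SE 0.40), and to Pdhx, with 1.35 (SE 0.86), and Pdp1, with 0.72 (SE 0.56). The difference of the genotype effect between lineages was called for no gene of the lists, and no gene of the lists had an unadjusted p under 0.05 with all libraries. The smallest p of each list belonged to Me2 (-0.47, SE 0.24) and Got1 (-0.50, SE 0.36), to Sdhd (-0.48, SE 0.40) and Sucla2 (-0.31, SE 0.44), and to Pdhx (-1.33, SE 0.95) and Pdp1 (-0.57, SE 0.64). Sirt2-/- CD4+ replicate 4 enters these estimates as well.

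The genes whose profile over the 16 libraries was closest to the mean profile of the members were looked for among 8300 genes with a mean of at least 10 CPM. Likeness was the root mean square difference of log2 CPM after each gene was centred on its mean. The closest 5 were Mapre1 (0.09), Hdac1 (0.12), Nup50 (0.13), Nucks1 (0.13) and Atp5g3 (0.13). The members themselves did not all follow their mean profile. Idh3g (1.20), Fh1 (1.06) and Suclg1 (0.92) lay further from it than the median gene (0.72), and the other members lay closer, from 0.20 for Cs to 0.59 for Idh3b. These distances include Sirt2-/- CD4+ replicate 4, where Idh3g and Fh1 have no count and Suclg1 is at 116 CPM. The mean profile itself was at -1.41 in that library. Distances of the members over the 13 libraries were not examined. Over the 13 libraries the closest 5 were others, Smu1 (0.06), Bzw1 (0.06), Nars (0.07), Fermt3 (0.07) and Eif3c (0.08), so the names depend on the 3 libraries with few genes.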

How the data were processed

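The authors aligned and counted the reads (STAR and HTSeq on mm10, per the labels; versions and the strand setting are not given in the sources used here) and deposited whole-number counts per gene, without normalization. The 55450 gene identifiers are those of the GENCODE annotation of GRCm38. Counts were fitted in R 4.3.3 with edgeR 4.0.16 (TMM, filterByExpr by group, robust quasi-likelihood test, two-sided, Benjamini-Hochberg over all genes tested, threshold 0.05) on the 8 libraries of each comparison, and on all 16 for the interaction. CPM were scaled by TMM over the 16 libraries, and CPM per kb divide by the union of annotated exons. Groups followed the labels. The functions were tested on simulated data. Alternatives were DESeq2 1.42.0, its size factors, no filter, 1 model over 16 libraries, a replicate block, leaving out libraries with under 15000 genes detected, and leaving out each library. Depth was 28000949 to 62407851 counts; a count of 0 is read as under 3 counts, for counting error only. All 9 members were tested in every comparison. Named genes are the 9 members, Sirt2, genes of the lists that were called (at most 5 per list and comparison) or, where none was, the 2 with the smallest p, and the 5 of most like profile; those named without the 3 libraries with few genes, and those of likeness over 13 libraries, were added after their values were seen. The members, the lists and the libraries with few genes were chosen with earlier results of these data known. Exons of Idh3b overlap those of Nop56 on the opposite strand by 5 bases. Some items are not reported here.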

Additional observations from a re-analysis of the deposited data

Results flagged for a closer look

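Within each group of 4 libraries the gap of the highest or lowest library to its neighbour was compared with the range of the group, for the 9 enzymes, their summed CPM and the number of genes detected. Of 44 such groups 8 exceeded the 95% critical value of Dixon's ratio for groups of 4, where chance alone gives about 1 in 20 (2.2 of 44): 2 of them for the number of genes detected and 6 for enzymes. Of the 6 for enzymes 5 belong to libraries with under 15000 genes detected. Sirt2-/- CD4+ replicate 4 stood apart for the number of genes detected (8169), for Idh3b (141 CPM) and Suclg1 (116 CPM), which were the highest of the group, and for Ogdh (78.1 CPM) and Idh3g (0 CPM), which were the lowest. WT CD8+ replicate 1 was the lowest of its group for the number of genes detected (14411) and for Suclg1 (38.2 CPM). Sirt2-/- CD8+ replicate 1 was the lowest of its group for Idh3a, at 90.0 CPM, and has no shortage of genes detected. The part of library quality in these values was not tested.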

How the results depend on the processing

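Between genotypes, and for the difference between lineages in the genotype effect (the interaction), 0 of 9 members were called under every alternative run. Between lineages Idh3a was called in WT TILs under every alternative but leaving out any 1 of 5 libraries. In Sirt2-/- TILs no member was called without the filter (adjusted p 0.0557 for Idh3a, edgeR) or with the replicate block, and 2 (Cs, Idh3a) were called with all 16 libraries in 1 model. The model over 16 libraries gives the interaction itself and so no alternative. Leaving out 1 library gave 0 to 1 members in WT and 0 to 5 in Sirt2-/- TILs, the 5 without CD4+ replicate 4; without the libraries with few genes there were 4 and 5. The cause was not tested.

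Over all genes, DESeq2 called 6 and 55 between genotypes in CD4+ and CD8+ TILs, 3109 and 658 between lineages in WT and Sirt2-/- TILs, and 5 in the interaction, against 0, 1, 1765, 354 and 0 by edgeR. Without the libraries with few genes these were 6, 7, 4394, 4250 and 0. With 16 libraries in 1 model 811 and 781 were called between lineages, and without the filter 5 between genotypes in CD8+ TILs. Leaving out 1 library gave 0 to 7 between genotypes in CD8+ TILs, 1022 to 2766 between lineages in WT and 111 to 4250 in Sirt2-/- TILs.

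The replicate block called 4 genes between genotypes in CD8+ TILs, and 1619 and 108 between lineages in WT and Sirt2-/- TILs, with an adjusted p of 0.0723 for Idh3a in the last (log2 fold change 1.14, edgeR). Deviations of libraries of the same number correlated by -0.0778 to 0.0935 between genotypes in CD4+, -0.0818 to 0.0326 in CD8+ TILs, 0.098 to 0.133 between lineages in WT and -0.0234 to 0.15 in Sirt2-/- TILs. In WT TILs every library correlated best with its own number, a hint from the data and not from the labels, so the libraries were treated as sharing a number only.

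Values with no call changed sign as follows. Without the libraries with few genes, log2 fold changes were 0.22 for Idh3g between genotypes in CD4+ TILs and, in CD8+ TILs, -0.058 for Idh3a, -0.047 for Ogdh, -0.028 for Dlst, -0.032 for Suclg1 and -0.086 for Mdh2. Between lineages they were 0.18 for Ogdh and 0.16 for Dlst in WT and 0.19 for Idh3b in Sirt2-/- TILs (0.0060 with the replicate block), and in the interaction -0.028 for Cs and -0.18 for Idh3g. Leaving out 1 library gave, between genotypes in CD4+ TILs, -0.17 to 0.31 for Idh3b, -0.49 to 0.14 for Idh3g and -0.70 to 0.025 for Fh1. In CD8+ TILs it gave -0.14 to 0.042 for Cs, -0.058 to 0.17 for Idh3a, -0.047 to 0.10 for Ogdh, -0.034 to 0.063 for Dlst, -0.032 to 0.19 for Suclg1 and -0.086 to 0.18 for Mdh2. Between lineages it gave -0.078 to 0.35 for Idh3b, -0.079 to 0.23 for Idh3g, -0.16 to 0.080 for Ogdh and -0.18 to 0.13 for Dlst in WT, and -0.13 to 0.19 for Idh3b and -0.14 to 0.55 for Suclg1 in Sirt2-/- TILs. In the interaction it gave -0.37 to 0.11 for Idh3b and -0.080 to 0.56 for Idh3g.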
